A study of Mus musculus with 40 samples.

Results

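The comparison is of left ventricles from Rbm20 knockout males with those from wildtype males, described over all expressed genes and by pathway. It takes in 20 of the 40 libraries of the series, which are all those labelled male: 2 libraries from each of 5 knockout mice (ko_m) and each of 5 wildtype mice (wt_m). All mice were 10 weeks old, and the labels call the genotypes knockout and wildtype without naming the allele or the background strain. Total RNA was sequenced on a BGISEQ-500. The 2 libraries of a mouse were averaged, so n = 5 mice per genotype. Of 24930 genes in the male table, 12506 had a mean normalized count of at least 10 over the 10 mice, and these are the genes tested. The other sex, 5 knockout (ko_f) and 5 wildtype (wt_f) females of the same age, is used only where the male change is set beside the female one.

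RBM20 is a nuclear RNA-binding protein of striated muscle that keeps chosen exons out of the mature transcripts of titin and of several calcium-handling and sarcomere genes. Without it the heart makes longer, more compliant titin, and mutations of the human gene cause dilated cardiomyopathy, often with arrhythmia. A failing heart is known to use less fatty acid as fuel, to turn genes of the fetal ventricle back on and to lay down matrix.

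Knockout libraries held 2351987 to 16973229 reads in genes, both extremes being the libraries of ko_m_127, and wildtype libraries held 5710301 to 10167290. The libraries of 1 mouse differed little more than by counting, with a chi-square per degree of freedom of 1.07 to 1.84 in 10 pairs, against 4.07 to 32.6 in 80 pairs of libraries from different mice of 1 genotype. Genes of the mitochondrial genome took 31.1 ± 3.12% in knockouts and 32.2 ± 3.16% in wildtypes of the reads. The 6 ventricular genes Myh6, Myl2, Myl3, Tnni3, Actc1 and Mybpc3 summed to 362064 to 469164 normalized counts in knockouts and 395433 to 479645 in wildtypes. The atrial genes Myl7, Myl4 and Sln summed to 15.1 to 34.2 in knockouts and 9.85 to 2299.6 in wildtypes, the highest sum being that of wt_m_112. On the first principal component of all genes tested, which carried 44.3% of the variance, knockouts lay at 12.5 to 30.2 and wildtypes at -21.9 to -18.0, so the genotypes did not overlap. The highest knockouts there were ko_m_106 and ko_m_127. In whole tissue, a change in the number of cells of a type and a change in RNA per cell cannot be told apart, and this holds for every value below.

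Values are normalized counts. Single mice are listed in the order ko_m_106, ko_m_127, ko_m_128, ko_m_130 and ko_m_97, then wt_m_112, wt_m_113, wt_m_124, wt_m_125 and wt_m_139. Means carry their SD over 5 mice. A log2 change is knockout minus wildtype as fitted by limma, with its SE after ±. A gene rose or fell where its two-sided p, adjusted over all 12506 genes, was under 0.05. Positions are on GRCm39.

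Rbm20 itself (ENSMUSG00000043639.16, chromosome 19, 53665737 to 53855511) checks the labels. It had 304, 308, 221, 263 and 266 in knockouts, against 845, 795, 894, 865 and 809.8 in wildtypes. Every knockout was below every wildtype, and the spread within a genotype was small beside the gap. The log2 change was -1.63 ± 0.09 (adjusted p = 9.3e-08), which leaves 0.322 of the wildtype level in the transcripts counted.

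Over all genes the change was mostly modest. At the threshold 950 genes rose, 7.60% of those tested, and 1037 fell, 8.29%, together 15.9%. The median log2 change over all genes was -0.001, and the 5th and 95th percentiles were -0.48 and 0.47. Scaling each library by a size factor can itself hold this median near 0, so the median is no measure of balance. The median fold was 1.42 among rises and 0.718 among falls. Of the rises 564 were under 1.5-fold and 150 at least 2-fold, and of the falls 656 were under 1.5-fold and 130 at least 2-fold. Every knockout lay on one side of every wildtype in 1584 genes, 12.7% of those tested, among them 661 of the rises and 725 of the falls.

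**Figure D1:**
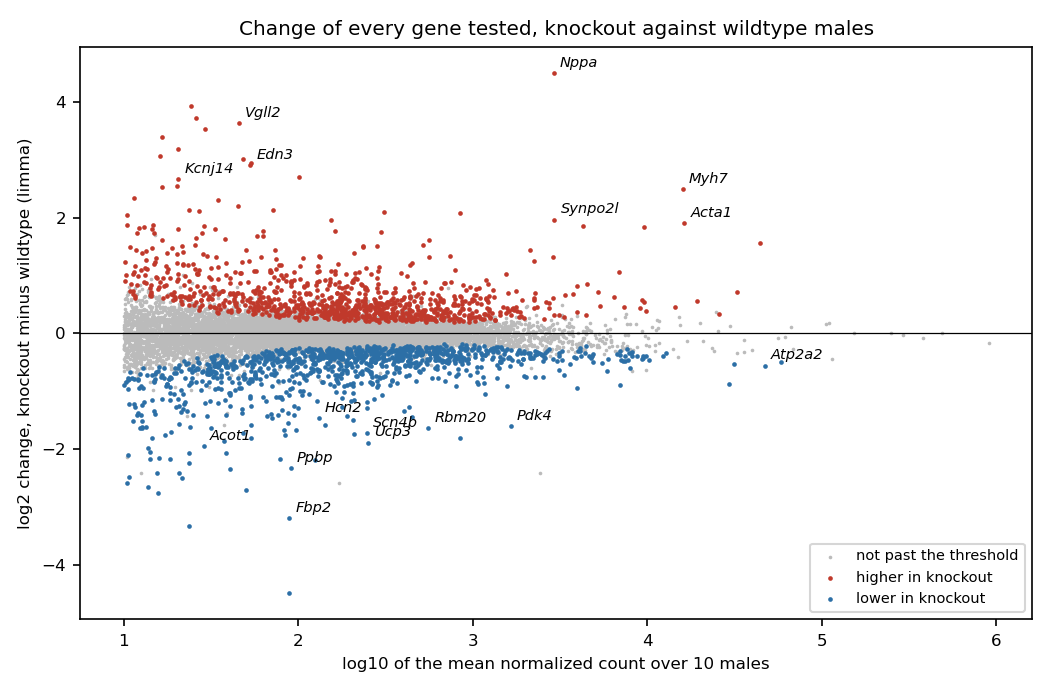
Each dot is 1 of 12506 genes, with the log10 of its mean normalized count over 10 males on the horizontal axis and its limma log2 change, knockout minus wildtype, on the vertical axis. Red dots are the 950 genes that rose and blue dots the 1037 that fell at an adjusted p under 0.05, and grey dots the rest.

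The genes of the fetal ventricle and of wall stress had the largest median change of all lists. Of 23 such genes 16 rose and none fell, with a median log2 change of 1.25 against -0.001 over all genes, where 7.60% of all genes rose. The lists here were drawn up with earlier results of these data known. Nppa encodes atrial natriuretic peptide, which ventricles make under load. It had 7200.1, 4553, 4983, 8514 and 2542 in knockouts, against 554, 150.5, 106.4, 257 and 256 in wildtypes. The lowest knockout, ko_m_97, was still above the highest wildtype, wt_m_112, and the knockouts differed among themselves by more than 3-fold. The log2 change was 4.499 ± 0.37 (adjusted p = 2.7e-06).

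Its neighbour on chromosome 4, Nppb, the gene of brain natriuretic peptide, had 7339, 5242, 6053, 9248 and 5603 in knockouts, against 1751, 1387, 2307, 2155 and 1629 in wildtypes, a log2 change of 1.85 ± 0.16 (adjusted p = 3.5e-06). Myh7, the slow myosin heavy chain of the fetal mouse ventricle, had 35327, 35411, 12970.4, 25398 and 27505 in knockouts, against 4374, 3614, 4903, 6245 and 4081 in wildtypes (log2 2.50 ± 0.23). All knockouts were above all wildtypes for both genes, and ko_m_128 was the lowest knockout for Myh7. Acta1, skeletal alpha-actin, averaged 25824 ± 3552 in knockouts and 6899 ± 1059 in wildtypes (log2 1.91 ± 0.13), and Mybpc2, a thick filament protein of fast skeletal fibres, averaged 1375 ± 240.2 in knockouts and 325 ± 53.6 in wildtypes (log2 2.07 ± 0.13). Tnfrsf12a, the receptor of the cytokine TWEAK, was among the tightest changes: it had 909, 696, 807, 1008 and 807 in knockouts, against 263, 259, 277, 283 and 283 in wildtypes (log2 1.62 ± 0.09, adjusted p = 9.3e-08). Myh6, the adult mouse myosin that stands head to tail with Myh7, averaged 97852 ± 17079 in knockouts and 131918 ± 16171 in wildtypes and did not pass (log2 -0.44 ± 0.17, adjusted p = 0.1). Mhrt, a long noncoding RNA read from the same locus on the strand opposite to Myh7, averaged 71.7 ± 18.9 in knockouts and 212 ± 27.4 in wildtypes (log2 -1.58 ± 0.15); the sources used here do not say whether counting used the strand, so reads of Mhrt and of the genes it overlaps cannot be told apart.

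M-CAT elements, which the TEAD factors bind, are known in promoters of several of these genes, so their letters were looked up in RefSeq promoters on GRCm38.p6, a build other than that of the table, from 250 bases before to 50 after a start. The letters CATTCC, on either strand, were in 8 of 26 promoters of the fetal and stress genes (30.8%), and in 12.3% of the promoters of all genes tested, 13.9% of those of rises and 13.2% of those of falls. The matches of 4 genes described above are shown on the gene's strand, 5′ to 3′, with the match in capitals and GGAATG standing for CATTCC on the other strand. They lie in chr4:147985650-147985949, chr8:123894726-123895025, chr14:54994577-54994876 and chr7:44524620-44524919.
Nppb: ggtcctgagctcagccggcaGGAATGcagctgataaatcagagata
Acta1: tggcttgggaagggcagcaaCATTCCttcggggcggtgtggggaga
Myh7: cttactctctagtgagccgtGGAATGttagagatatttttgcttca
Mybpc2: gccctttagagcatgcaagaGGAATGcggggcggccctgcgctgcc
The first base of the match is at -105 of the start in Nppb, -46 in Acta1, -201 in Myh7 and -62 in Mybpc2. These are matches of letters in 1 window per start and no measure of binding.

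**Figure D2:**
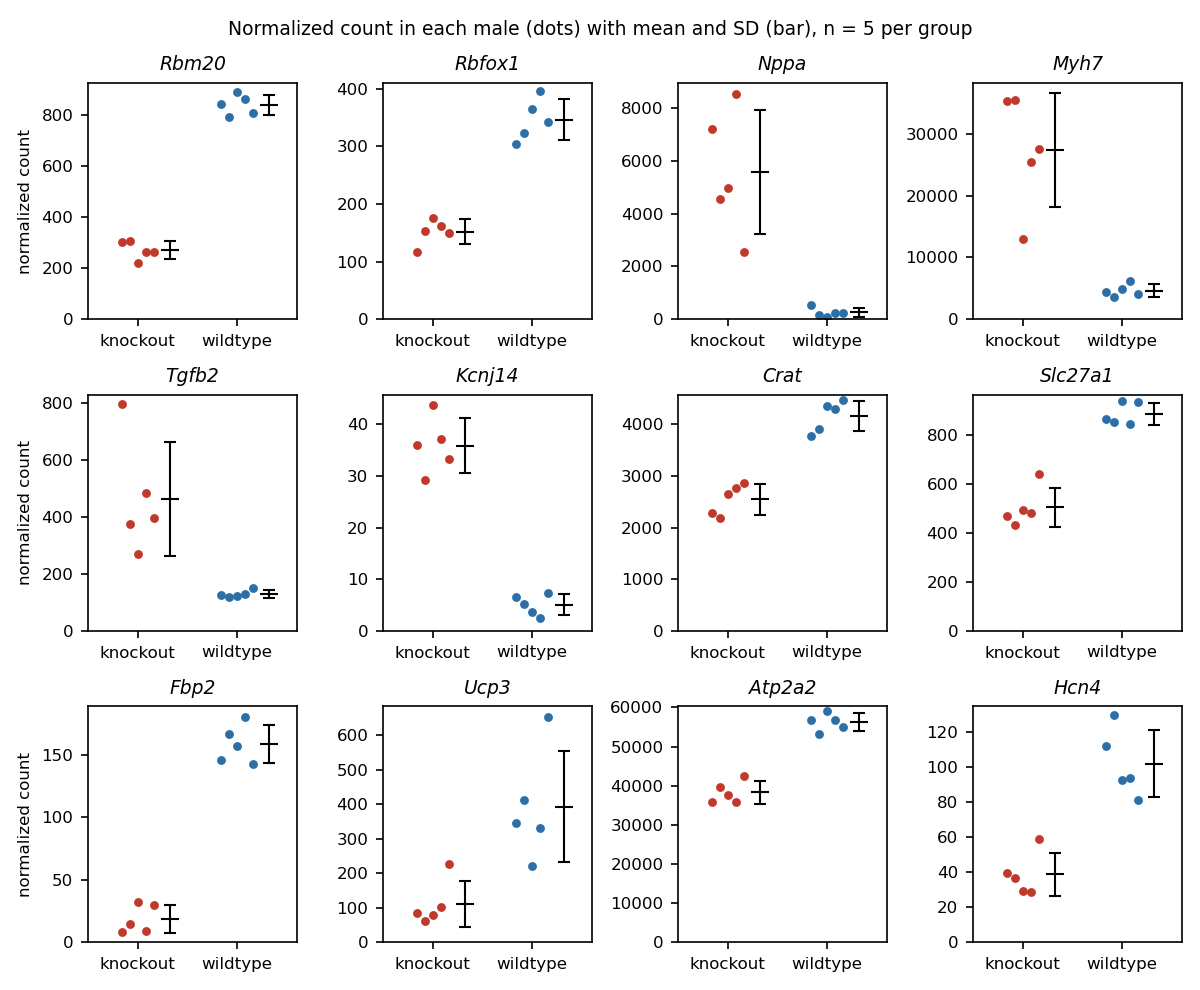
Normalized counts of 12 genes in each male, knockout dots left of wildtype dots, each axis from 0, with the mean and SD over 5 mice beside the dots. The genotypes overlap in Ucp3 alone, where knockout ko_m_97 is above wildtype wt_m_124.

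In the contractile apparatus some genes of the Z-disc and of the filaments rose, and none of either list fell in limma on all mice. Of 30 Z-disc and costamere genes 9 rose and none fell (median log2 0.19), and of 28 thick and thin filament genes 6 rose and none fell (median 0.07). Synpo2l, an actin-binding protein of the Z-disc, had 7059.7, 4521, 2845, 4414 and 4721 in knockouts, against 1246, 1178, 1252, 1121 and 1005 in wildtypes (log2 1.97 ± 0.17, adjusted p = 3.5e-06). The genotypes did not overlap, and the knockouts ran from ko_m_128 to ko_m_106. Xirp2, which binds actin at intercalated discs and costameres, averaged 15037 ± 4326 in knockouts and 4112 ± 616 in wildtypes (log2 1.83 ± 0.17), and Myot, myotilin of the Z-disc, averaged 3121 ± 657 in knockouts and 1144 ± 169 in wildtypes (log2 1.43 ± 0.14). Myom3, an M-band myomesin, rose by 0.74 ± 0.15 on the log2 scale, and Lmod2, which lengthens thin filaments, by 0.63 ± 0.12, although its genotypes overlapped. Of 29 cytoskeleton genes 6 rose, and the largest change was that of the keratin Krt18 (log2 2.05 ± 0.34). Krt18 averaged 17.7 ± 6.76 in knockouts and 3.26 ± 1.13 in wildtypes, so it passed the floor of 10 only through the knockouts. In the list 1 gene fell, Stmn1 (log2 -0.47 ± 0.15). Stmn1, like every gene outside the rule stated with the methods, was named after its values were seen. Its fall was lost without any mouse but ko_m_128 and ko_m_130. Map4, a microtubule-associated protein, averaged 3523 ± 626 in knockouts and 2283 ± 117 in wildtypes (log2 0.61 ± 0.11), and Kif5b, a kinesin heavy chain, averaged 1338 ± 146 in knockouts and 878 ± 64.5 in wildtypes (log2 0.60 ± 0.08). Of 17 intercalated disc genes 2 rose and 2 fell, near the share of all genes. Dsg2, the desmoglein of the disc, averaged 205 ± 34.4 in knockouts and 359.8 ± 24.4 in wildtypes (log2 -0.82 ± 0.10), and the plakophilin Pkp2 rose (log2 0.39 ± 0.12, adjusted p = 0.045), a call that ended without ko_m_106, ko_m_130, ko_m_97, wt_m_112, wt_m_113 or wt_m_124 (adjusted p = 0.084 to 0.109).

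Genes of calcium handling split, and channel genes fell. Of 30 calcium-handling genes 7 rose and 4 fell (median log2 -0.05). Atp2a2 encodes SERCA2, the pump that refills the sarcoplasmic reticulum. It had 35847, 39549.6, 37498, 35897 and 42519 in knockouts, against 56811, 53134, 59153, 56875 and 54994 in wildtypes. All knockouts were below all wildtypes, with a log2 change of -0.56 ± 0.11 (adjusted p = 0.0035), which missed the threshold when genes of all levels were fitted together (adjusted p = 0.0878). Casq1, the skeletal calsequestrin that stores calcium, averaged 3143 ± 418 in knockouts and 1325 ± 236 in wildtypes (log2 1.25 ± 0.12). The calmodulin kinases Camk2b (log2 0.46 ± 0.14) and Camk2d (log2 0.31 ± 0.08) also rose, and Hrc, a calcium-binding protein of the reticulum (log2 -0.37 ± 0.08), Jph1 (log2 -0.41 ± 0.10) and Itpr2 (log2 -0.44 ± 0.11) fell.

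Of 37 genes of sodium and potassium channels 16 fell and 2 rose, with a median log2 change of -0.24. The falls took in subunits of several currents. The pacemaker channel Hcn2 had 46.7, 85.5, 84.3, 67.1 and 66.5 in knockouts, against 225, 211, 176, 169 and 181 in wildtypes (log2 -1.47 ± 0.15, adjusted p = 1.1e-05), and Hcn4 had 39.5, 36.8, 29.3, 28.97 and 59.1 in knockouts, against 112.04, 129, 92.7, 93.5 and 81.1 in wildtypes (log2 -1.40 ± 0.18). Neither pair of groups overlapped. Scn4b, a beta subunit of sodium channels, averaged 126 ± 64.5 in knockouts and 369.8 ± 92.8 in wildtypes (log2 -1.72 ± 0.35), and knockout ko_m_106 was the lowest at 36.6. Kcnj3, a subunit of the acetylcholine-gated potassium channel, averaged 196 ± 31.4 in knockouts and 372 ± 29.99 in wildtypes (log2 -0.93 ± 0.10). Kcnip2, a subunit of the transient outward current (log2 -0.59 ± 0.10), Kcnd2 (log2 -0.72 ± 0.16), Kcnh2 (log2 -0.81 ± 0.10), Kcnj2 (log2 -0.49 ± 0.09), Kcnj11 (log2 -0.30 ± 0.07) and Kcnq1 (log2 -0.29 ± 0.09) fell as well. Against this, the inward rectifier Kcnj14 (ENSMUSG00000058743.7, chromosome 7, 45465884 to 45474206) had 35.9, 29.2, 43.7, 37.1 and 33.3 in knockouts, against 6.62, 5.19, 3.69, 2.41 and 7.42 in wildtypes. The knockouts were all well above the wildtypes (log2 2.66 ± 0.24, adjusted p = 5.7e-06). The other rise was Kcnk2, a stretch-gated potassium channel (log2 0.91 ± 0.12).

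In adrenergic and G protein signalling 7 of 35 genes rose and 2 fell (median log2 -0.05). Grk5, a kinase that desensitises receptors, had 735, 611, 512, 563 and 608 in knockouts, against 305, 233, 238, 236 and 319.6 in wildtypes (log2 1.19 ± 0.11), and Gnao1, the alpha subunit of the G protein Go, averaged 771 ± 158 in knockouts and 265 ± 50.5 in wildtypes (log2 1.53 ± 0.14). Both were higher in every knockout than in any wildtype. Gnas, the alpha subunit of Gs (log2 0.58 ± 0.17), and the regulatory subunit Prkar1a of protein kinase A (log2 0.37 ± 0.09) rose. Rgs2, which shortens Gq signals, averaged 202 ± 53.7 in knockouts and 374 ± 91.9 in wildtypes (log2 -0.90 ± 0.18), and the receptor Adra1b also fell (log2 -0.45 ± 0.10).

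Energy metabolism moved the other way, and fatty acid oxidation most completely. Of 37 genes of fatty acid uptake and beta-oxidation 31 fell and none rose, with a median log2 change of -0.52, where 8.29% of all genes fell. Between 28 and 31 of them fell whichever mouse was left out. Crat, the carnitine acetyltransferase of mitochondria, had 2279, 2193, 2645, 2759.9 and 2861 in knockouts, against 3781, 3909, 4342, 4299.7 and 4461 in wildtypes. The genotypes did not overlap and ko_m_127 was lowest (log2 -0.71 ± 0.09, adjusted p = 7.5e-05). Slc27a1, a fatty acid transporter, had 467, 433, 493, 481 and 642 in knockouts, against 862, 852, 938, 843 and 931 in wildtypes (log2 -0.83 ± 0.09), and ko_m_97 was the knockout nearest to the wildtypes. Acot1, a cytosolic thioesterase, averaged 11.6 ± 4.53 in knockouts and 45.7 ± 7.02 in wildtypes (log2 -1.94 ± 0.22).

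Falls were found at most steps of the pathway. Lpl, which frees fatty acids from lipoproteins, changed by -0.54, and Pnpla2, the lipase of lipid droplets, by -0.75 on the log2 scale. At activation and mitochondrial entry Acsl1 changed by -0.49, Cpt1a by -0.49, the carnitine carrier Slc25a20 by -0.51 and Cpt2 by -0.77. In the oxidation spiral the dehydrogenases Acadvl (-0.33), Acadl (-0.46), Acadm (-0.40) and Acads (-0.45), both subunits of the trifunctional protein, Hadha (-0.46) and Hadhb (-0.40), and the last thiolase Acaa2 (-0.94) fell. The auxiliary enzymes Ech1 (-0.89), Decr1 (-0.76) and Eci1 (-0.73) and the electron carriers Etfa (-0.46), Etfb (-0.87) and Etfdh (-0.53) fell too. The uptake protein Cd36, at 9144 ± 1082 in knockouts and 10436 ± 372 in wildtypes (log2 -0.20 ± 0.09), and the binding protein Fabp3, at 21475 ± 3796 in knockouts and 25369 ± 2855 in wildtypes (log2 -0.25 ± 0.13), did not pass. The other 4 that did not pass were Cpt1b, the muscle form of the entry enzyme (log2 -0.27 ± 0.24), Acad10 (log2 -0.41 ± 0.14), and Echs1 (log2 -0.21 ± 0.08) and Hadh (log2 0.00 ± 0.20) of the oxidation spiral.

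Other routes of fuel use were lower in smaller numbers. Of 26 peroxisome genes 9 fell and none rose (median log2 -0.19), among them Pex11a, which acts in peroxisome division (log2 -0.77 ± 0.10), and Hsd17b4, of peroxisomal beta-oxidation (log2 -0.42 ± 0.07). Of 6 genes of ketone body use 2 fell, among them Bdh1, which oxidises hydroxybutyrate and averaged 857 ± 201 in knockouts and 1424 ± 243 in wildtypes (log2 -0.75 ± 0.15). It was lower in every knockout than in any wildtype. Of 22 genes of branched-chain amino acid breakdown 8 fell (median -0.26), with the transaminase Bcat2 at -0.46 ± 0.09, the dehydrogenase subunit Dbt at -0.37 ± 0.07 and the epimerase Mcee at -0.46 ± 0.09. The 8 became 5 without ko_m_106, wt_m_124, wt_m_125 or wt_m_139.

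Carbohydrate genes gave a mixed picture with large falls at single steps. Of 24 genes of glycolysis and glucose uptake 7 fell and 1 rose (median log2 -0.17). Fbp2, the muscle fructose-bisphosphatase, had 8.68, 14.9, 32.3, 9.14 and 29.6 in knockouts, against 146, 167, 157, 181 and 143.1 in wildtypes (log2 -3.19 ± 0.29, adjusted p = 6.4e-06). Even the highest knockout, ko_m_128, was far below the lowest wildtype, wt_m_139. Pfkfb1, which sets fructose 2,6-bisphosphate, averaged 41.5 ± 19.1 in knockouts and 123.7 ± 7.08 in wildtypes (log2 -1.67 ± 0.23), and Ldhd, the dehydrogenase of D-lactate, averaged 201 ± 27.02 in knockouts and 319 ± 37.2 in wildtypes (log2 -0.66 ± 0.10). The rise was the platelet-type phosphofructokinase Pfkp (log2 0.39 ± 0.11), which did not pass without ko_m_106, ko_m_130, wt_m_113, wt_m_124 or wt_m_139. Of 12 genes around pyruvate dehydrogenase 5 fell. Pdk4, the kinase that shuts the complex, had 1061, 363, 446, 1003 and 1218 in knockouts, against 2088, 2419, 1318, 1708 and 4886 in wildtypes (log2 -1.61 ± 0.36), with wt_m_139 far above the other wildtypes. The phosphatase Pdp2, which opens the complex, fell as well (126.5 ± 8.48 in knockouts and 212 ± 23.6 in wildtypes; log2 -0.73 ± 0.09), as did the kinase Pdk2 (-0.39 ± 0.09), the core subunit Dlat (log2 -0.76 ± 0.23) and the pyruvate carrier subunit Mpc2 (log2 -0.44 ± 0.11). Glycogen genes were split, 4 rising and 4 falling of 16: the synthase Gys1 fell (log2 -0.46 ± 0.08) and Ppp1r3c, which targets a phosphatase to glycogen, rose (log2 0.50 ± 0.09). The 4 rises became 2 without ko_m_130, wt_m_113 or wt_m_124.

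Downstream, nuclear genes of the mitochondrion were lower by smaller steps. Of 19 citric acid cycle genes 10 fell (median log2 -0.30) and all 19 had a negative change. Citrate synthase, Cs, had 6939, 6854, 8023, 9284 and 8637 in knockouts, against 9162, 10129.7, 11627, 12197 and 11054 in wildtypes, and ko_m_130 overlapped wt_m_112 (log2 -0.45 ± 0.11, adjusted p = 0.011). Idh3a, of isocitrate dehydrogenase, averaged 3278 ± 406 in knockouts and 4349.8 ± 143.2 in wildtypes (log2 -0.42 ± 0.09). Of 37 nuclear genes of complex I 9 fell (median -0.27), with 36 of the 37 changes negative. Ndufv3 had 2005, 2099, 2636, 2544 and 2945 in knockouts, against 3608, 4036, 3372, 3528 and 4442 in wildtypes (log2 -0.64 ± 0.11), and ko_m_97 was nearest to the wildtypes. Of 36 nuclear genes of complexes III to V 8 fell (median -0.28), with Cox7a1, the muscle form of a cytochrome oxidase subunit, at 4601 ± 970.3 in knockouts and 7093 ± 816 in wildtypes (log2 -0.65 ± 0.14), Uqcrc1 of complex III at -0.47 ± 0.10 and Atp5d of the ATP synthase at -0.43 ± 0.10 on the log2 scale. The 13 protein genes of the mitochondrial genome itself gave 0 calls in limma, 0 at an unadjusted p under 0.05 and 0 in edgeR and DESeq2, with a median of -0.08, while its ribosomal RNAs mt-Rnr1 (log2 -0.87 ± 0.14) and mt-Rnr2 (log2 -0.49 ± 0.14) fell. Mitochondrial ribosomal proteins had 11 of 77 lower and 1 higher, Mrpl33 (log2 0.42 ± 0.11), with a median of -0.16, and cytosolic ribosomal proteins 1 of 76 lower, Rps2 (log2 -0.40 ± 0.10), with a median of -0.08.

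These smaller counts rested on single mice more than the fatty acid genes did. The 10 citric acid cycle falls became 5 without ko_m_106, ko_m_127 or wt_m_113 and 4 without wt_m_124 or wt_m_125. The 9 in complex I became 5 without ko_m_127 or wt_m_139 and 17 without ko_m_97, and the 8 in complexes III to V became 4 without ko_m_106, ko_m_127 or wt_m_139 and 5 without wt_m_113. The 11 mitochondrial ribosomal falls became 5 without ko_m_106 or wt_m_139, 6 without ko_m_127 and 7 without wt_m_113.

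Within mitochondria, 9 of 26 genes of protein import and folding fell and none rose (median log2 -0.16). Hspd1, the chaperonin of the matrix, had 1601, 1543, 1682, 1710.3 and 1697 in knockouts, against 2049.9, 2050.3, 2004, 2007 and 1975 in wildtypes, a small change with little spread (log2 -0.29 ± 0.06, adjusted p = 0.0038). Its partner Hspe1 averaged 707 ± 69.7 in knockouts and 949 ± 97.6 in wildtypes (log2 -0.42 ± 0.09). Of 22 genes of dynamics, cristae and carriers 8 fell, among them the uncoupling protein Ucp3, with 84.1, 61.8, 79.5, 102 and 228 in knockouts, against 347, 414, 222, 332 and 655 in wildtypes (log2 -1.89 ± 0.31), where ko_m_97 overlapped wt_m_124. The coenzyme A carrier Slc25a42 averaged 309 ± 34.5 in knockouts and 516 ± 53.8 in wildtypes (log2 -0.74 ± 0.09), and Mfn1, a fusion GTPase, averaged 1339 ± 29.4 in knockouts and 1622 ± 28.3 in wildtypes (log2 -0.28 ± 0.06). Import falls became 4 without ko_m_106 or wt_m_112 and 5 without ko_m_127, wt_m_113, wt_m_125 or wt_m_139, and the 8 falls in dynamics became 5 without ko_m_127, wt_m_112, wt_m_124 or wt_m_125. Of 10 genes of phosphate transfer 4 fell, among them the muscle creatine kinase Ckm (log2 -0.39 ± 0.11), Ampd3 (log2 -0.73 ± 0.10) and Ak3 (-0.29 ± 0.07).

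Among 26 regulators of metabolism 7 fell and 2 rose. Esrra, a nuclear receptor that drives mitochondrial genes, had 572, 564, 613, 574 and 659.5 in knockouts, against 721, 689, 709, 678 and 696 in wildtypes (log2 -0.23 ± 0.06). The coactivator Ppargc1b (log2 -0.64 ± 0.16), Lpin1 (log2 -0.48 ± 0.09) and the retinoid receptors Rxrg (-0.57 ± 0.11) and Rxra (log2 -0.28 ± 0.07) fell. Ppargc1a, the best known coactivator of these genes, averaged 607 ± 124.5 in knockouts and 607 ± 49.8 in wildtypes (adjusted p = 0.94), and Ppara, the fatty acid receptor, averaged 67.0 ± 14.1 in knockouts and 72.3 ± 21.9 in wildtypes (adjusted p = 0.89). Neither passed. Nmrk2, a nicotinamide riboside kinase of muscle, had 625, 399.9, 457, 565 and 459 in knockouts, against 85.5, 71.5, 149, 185 and 119.5 in wildtypes (log2 2.09 ± 0.21, adjusted p = 1.2e-05), and all knockouts were above all wildtypes. The other rise was the orphan receptor Nr4a1 (log2 1.06 ± 0.31), which did not pass without ko_m_106, ko_m_128, ko_m_97, wt_m_112 or wt_m_113. The letters TCAAGGTCA of an extended half-site of the ERR receptors, on either strand, were in 0 of 37 promoters of the fatty acid genes. They were in 7 of 1000 promoters of falls (0.7%) and 1 of 989 of rises (0.101%). Over all genes tested they were in 35 of 12449 promoters (0.281%), so these shares rest on few promoters. They were in 1 of 22 promoters of the citric acid cycle (4.55%), in 1 of 31 of complexes III to V (3.23%), and in none of complex I or of branched-chain amino acid breakdown.

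Genes outside these routes were among the steepest falls. Fah, the last enzyme of tyrosine breakdown, had 73.7, 95.6, 105, 104 and 100.3 in knockouts, against 399.9, 330.4, 280.0, 296 and 304 in wildtypes (log2 -1.74 ± 0.11). The genotypes did not overlap. The other steep falls were Mylk4, a myosin light chain kinase family member (log2 -1.81 ± 0.20), Cep128, a centriolar protein (log2 -1.67 ± 0.10), Whrn, whirlin (-1.55 ± 0.10), and Nrgn, neurogranin (-2.17 ± 0.41). Nrgn had 28.8, 25.03, 18.6, 15.6 and 28.5 in knockouts, against 115, 97.7, 127.6, 30.2 and 295 in wildtypes. In Nrgn, as in the platelet gene Ppbp, wt_m_139 was the highest wildtype and wt_m_125 the lowest, close to the knockouts, and the part of blood in the change of Nrgn was not tested.

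**Figure D3:**
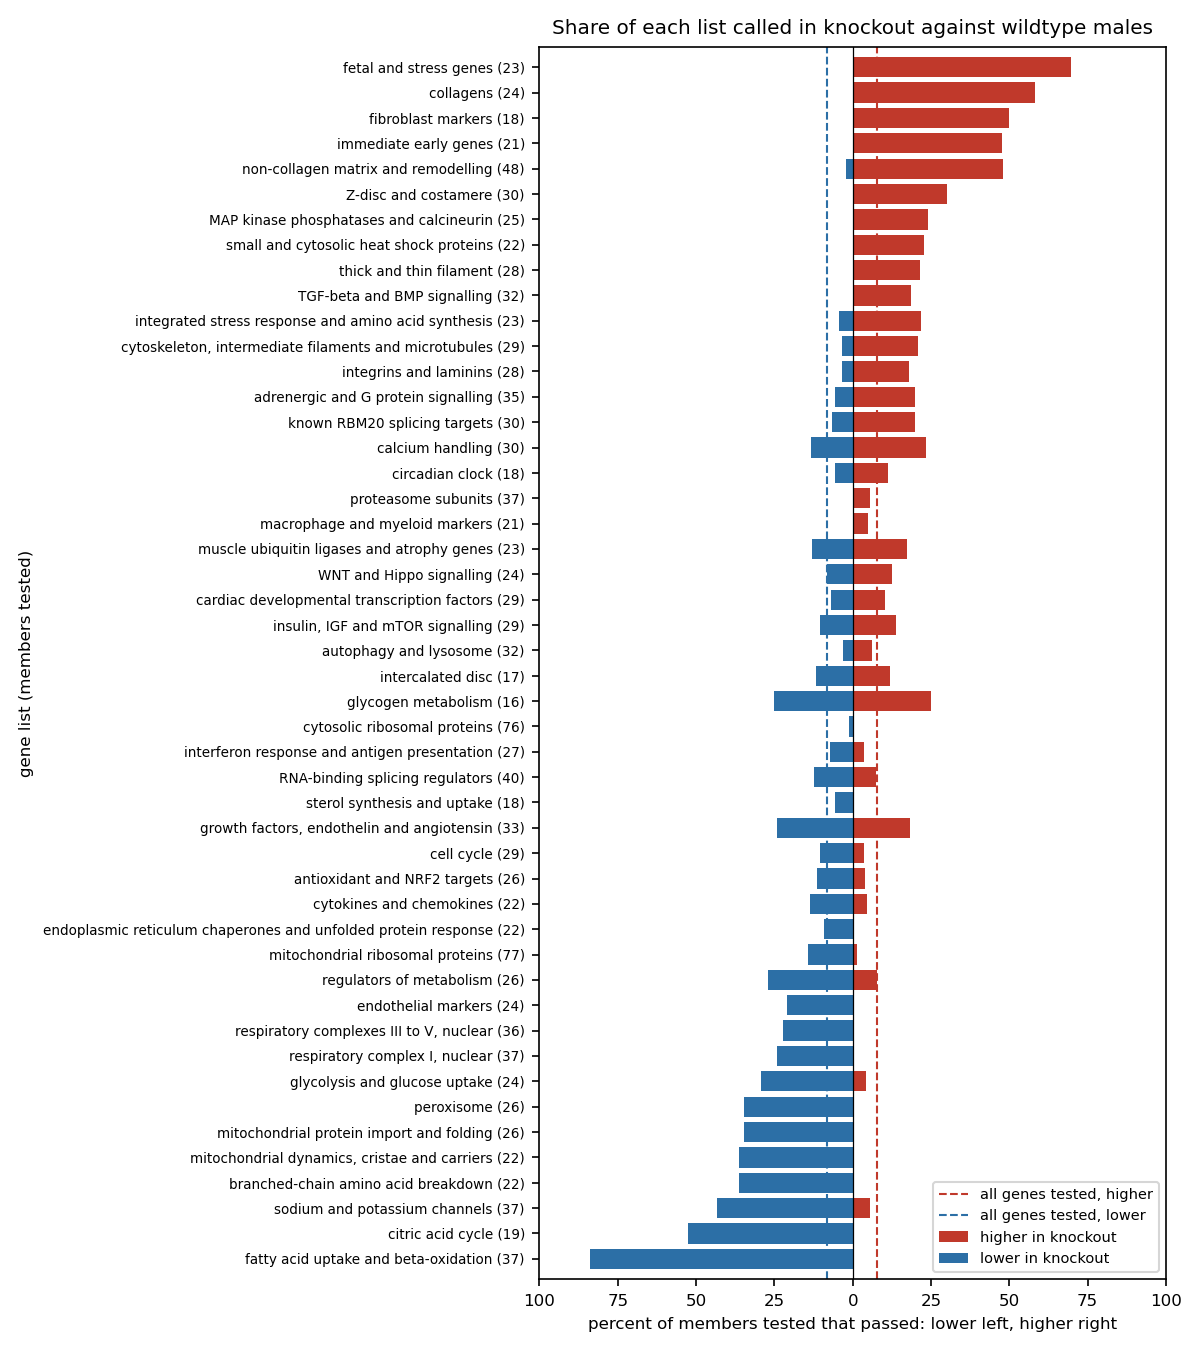
For each gene list with at least 15 members tested (number in brackets), bars show the percent of members that rose in knockout males to the right of 0 and the percent that fell to the left, and dashed lines show the 7.60% and 8.29% over all genes tested. Fetal and stress genes and collagens stand at the top, and the citric acid cycle and fatty acid genes at the bottom.

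The knockouts were not alike in energy metabolism. A score per mouse was taken as the mean, over the members of a list, of log2(value + 1) minus the wildtype mean. For fatty acid genes it was -0.75, -0.76, -0.52, -0.49 and -0.33 in knockouts, against -0.11, -0.02, 0.01, 0.03 and 0.09 in wildtypes. The knockouts were all lower than the wildtypes, ko_m_106 and ko_m_127 lowest and ko_m_97 nearest to the wildtypes. The same mice, ko_m_106 and ko_m_127, were the lowest 2 knockouts in each of 14 lists of energy metabolism, and the genotypes did not overlap in 8 of the 14. The 14 leave out the regulators of metabolism, where ko_m_106 was the highest knockout at 0.033 and ko_m_127 the lowest at -0.070. For complex I the score was -0.53, -0.47, -0.16, -0.16 and -0.05 in knockouts, against -0.11, -0.01, -0.11, -0.02 and 0.25 in wildtypes, so 1 knockout stood among the wildtypes. The lists come from the same libraries, so they are not separate measurements.

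The matrix scores ran the other way in the same mice. For collagens the score was 0.91, 0.92, 0.36, 0.29 and 0.43 in knockouts, against 0.35, 0.15, -0.11, -0.30 and -0.09 in wildtypes. The genotypes overlapped between ko_m_130 and wt_m_112. For the other matrix genes the score was 0.73, 0.59, 0.24, 0.28 and 0.36 in knockouts, against 0.43, 0.21, -0.24, -0.33 and -0.07 in wildtypes. There wt_m_112, the wildtype with the highest atrial sum, was above ko_m_128, ko_m_130 and ko_m_97. For fetal and stress genes the score was 1.39, 1.03, 0.95, 1.43 and 0.98 in knockouts, against 0.17, -0.15, -0.15, 0.09 and 0.04 in wildtypes. These did not overlap, and the order of the knockouts differed, with ko_m_130 highest.

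**Figure D4:**
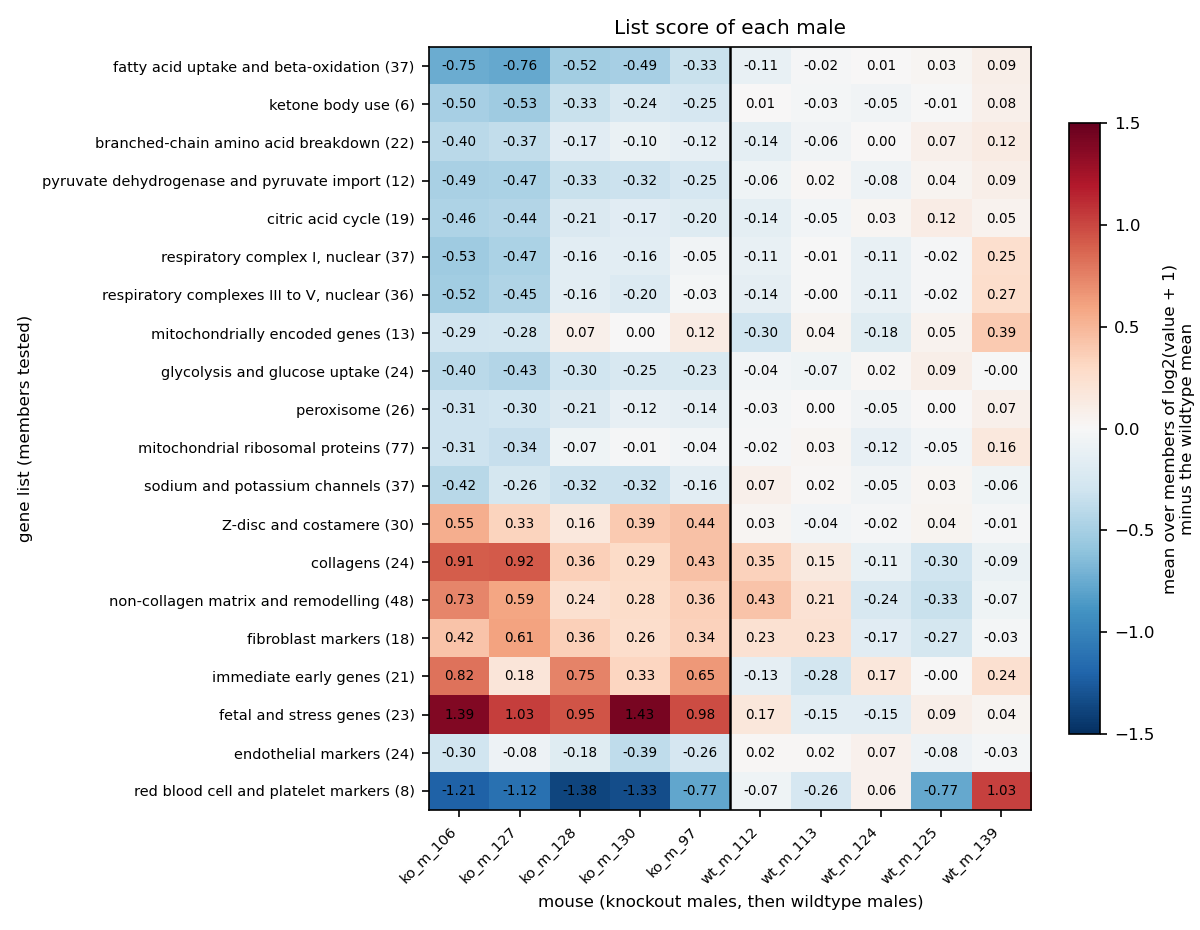
List score of each male, the mean over members of log2(value + 1) minus the wildtype mean, for 20 lists (members tested in brackets), knockouts left of the line and wildtypes right of it. The columns of ko_m_106 and ko_m_127 are the bluest of the knockouts in the rows of energy metabolism and the reddest in the collagen row.

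Matrix genes rose broadly. Of 24 collagens 14 rose and none fell, with a median log2 change of 0.60, and all 24 changes were positive. Col15a1, a basement membrane collagen, had 1777, 2075, 1262, 1193 and 1521 in knockouts, against 787, 888, 914, 736 and 753 in wildtypes (log2 0.91 ± 0.13), and Col8a1, a network collagen, had 621, 635, 453, 405 and 474 in knockouts, against 381, 268, 204, 206 and 217 in wildtypes (log2 1.04 ± 0.17). Every knockout was above every wildtype in both. Col4a5, of basement membranes, averaged 453 ± 44.8 in knockouts and 263 ± 33.2 in wildtypes (log2 0.78 ± 0.09). The fibrillar chains Col1a1 (log2 0.84 ± 0.18), Col1a2 (log2 0.69 ± 0.18) and Col5a1 (log2 0.60 ± 0.14) and the 3 chains of collagen VI, Col6a1, Col6a2 and Col6a3 (log2 0.59 ± 0.12, log2 0.58 ± 0.14 and log2 0.70 ± 0.18), rose. Col3a1 averaged 2383 ± 477 in knockouts and 1738 ± 410.3 in wildtypes and did not pass (adjusted p = 0.059).

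Of 48 other matrix and remodelling genes 23 rose and 1 fell (median log2 0.48). The largest change was that of Cilp, a matrix protein of activated fibroblasts (log2 2.13 ± 0.38). Vcan, versican, averaged 280.3 ± 50.2 in knockouts and 145 ± 32.3 in wildtypes (log2 0.95 ± 0.14), and Loxl2, a collagen cross-linking oxidase, averaged 242 ± 32.6 in knockouts and 137 ± 10.7 in wildtypes (log2 0.81 ± 0.09). Lum, lumican, which orders collagen fibrils, had 2116, 2329, 2349, 2197 and 2019.7 in knockouts, against 1582, 1514, 1052, 1139.9 and 1389 in wildtypes (log2 0.74 ± 0.11), with no overlap. Thbs1 (log2 1.30 ± 0.20), Bgn (log2 0.85 ± 0.15), Mmp14 (log2 0.83 ± 0.17) and Fbn1 (log2 0.54 ± 0.15) rose, and Postn, periostin, at 894 ± 281 in knockouts and 549.5 ± 286 in wildtypes, did not pass (adjusted p = 0.067). The fall was Ltbp1 (log2 -0.43 ± 0.09). Of 28 integrins and laminins 5 rose, among them Itga9 (log2 0.67 ± 0.13) and Itgb5 (0.39 ± 0.07), and 1 fell, Lamb3 (-0.65 ± 0.14).

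Fibroblast markers moved with the matrix: 9 of 18 rose and none fell (median log2 0.36), and 5 of the 9, Lum, Dcn, Col1a1, Col1a2 and Mfap4, are also in the collagen or matrix lists. The sum of all 20 fibroblast markers in the table was 34393 to 46171 in knockouts and 23399 to 37608 in wildtypes, and none of the 20 was at 0 in all mice. Meox1, a homeobox gene of activated fibroblasts, averaged 265 ± 56.0 in knockouts and 140.8 ± 15.9 in wildtypes (log2 0.89 ± 0.13), and Pdgfra, the fibroblast receptor, averaged 438 ± 44.0 in knockouts and 297 ± 52.6 in wildtypes (log2 0.57 ± 0.11). The part of fibroblast number in the matrix counts was not tested.

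Signals known to act on matrix and growth changed at single genes, in both directions. Of 32 TGF-beta and BMP genes 6 rose and none fell (median log2 0.04). Tgfb2 (ENSMUSG00000039239.15, chromosome 1, 186354989 to 186438186) had 795, 376, 269, 484 and 395 in knockouts, against 126.6, 118, 123, 129 and 151.02 in wildtypes. The knockouts were all higher, and ko_m_106 stood well above the rest (log2 1.74 ± 0.20, adjusted p = 4.0e-05). Tgfb3 averaged 205 ± 20.4 in knockouts and 138 ± 14.9 in wildtypes (log2 0.57 ± 0.09), and the receptors Tgfbr1 (log2 0.67 ± 0.09) and Tgfbr2 (log2 0.29 ± 0.09) rose, while Tgfb1 was not among the calls. The 6 rises became 3 without wt_m_124.

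Of 33 growth factor, endothelin and angiotensin genes 6 rose and 8 fell. Edn3, an endothelin, had 146, 63.6, 59.3, 108 and 96.6 in knockouts, against 9.50, 7.95, 12.7, 13.8 and 12.4 in wildtypes (log2 2.91 ± 0.23), and Fgf6, a fibroblast growth factor of muscle, had 175, 167, 117, 321 and 105 in knockouts, against 18.1, 16.7, 30.4, 41.4 and 21.8 in wildtypes (log2 2.7004 ± 0.28). Both groups were apart, with the lowest knockout above the highest wildtype. Fgf1 also rose (288 ± 19.7 in knockouts and 194 ± 17.6 in wildtypes; log2 0.57 ± 0.08), as did Hbegf (log2 0.94 ± 0.15) and the converting enzyme Ace (log2 0.65 ± 0.17). The renin-angiotensin genes Agt, angiotensinogen (log2 -1.61 ± 0.31), and Agtr1a, its receptor (log2 -0.64 ± 0.10), fell, as did the peptide Apln (log2 -1.10 ± 0.21) and Fgf2 (log2 -0.43 ± 0.09).

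In WNT and Hippo signalling 3 of 24 genes rose and 2 fell, near the share of all genes. Vgll2 (ENSMUSG00000049641.16, chromosome 10, 51898598 to 51904567), a cofactor of TEAD transcription factors in skeletal muscle, had 152, 74.0, 56.8, 90.3 and 56.0 in knockouts, against 9.66, 3.76, 5.34, 5.17 and 4.85 in wildtypes (log2 3.64 ± 0.27, adjusted p = 9.8e-07). The lowest knockout was more than 5 times the highest wildtype. With a wildtype mean of 5.76, Vgll2 passed the floor of 10 only through the knockouts. Wnt11 (12.5 ± 3.32 in knockouts and 26.4 ± 3.20 in wildtypes; log2 -1.04 ± 0.18) and the WNT inhibitor Wif1 (log2 -1.33 ± 0.32) fell, and Fzd2 (log2 0.74 ± 0.17) and Wnt5b (log2 0.49 ± 0.12) rose. The 2 falls became 4 without ko_m_106. In insulin, IGF and mTOR signalling 4 of 29 rose and 3 fell: the binding proteins Igfbp5 (log2 0.54 ± 0.17), Igfbp6 (log2 0.55 ± 0.16) and Igfbp7 (log2 0.46 ± 0.09) with Grb10 (log2 0.35 ± 0.08) rose, and Akt1 (log2 -0.41 ± 0.09), Akt2 (log2 -0.21 ± 0.07) and Grb14 (log2 -0.41 ± 0.08) fell. The 4 rises became 2 without ko_m_106, ko_m_127, wt_m_124 or wt_m_125.

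Immediate early genes rose in 10 of 21 cases and none fell (median log2 0.36). Egr3, a zinc finger factor, had 62.9, 28.02, 35.8, 40.3 and 63.4 in knockouts, against 9.29, 8.95, 11.9, 14.4 and 13.5 in wildtypes (log2 1.85 ± 0.22), with all knockouts higher, and Egr2 averaged 19.1 ± 9.61 in knockouts and 4.67 ± 1.35 in wildtypes (log2 1.73 ± 0.31). Egr2 passed the floor of 10 only through the knockouts. Egr1 (log2 1.502 ± 0.43), Myc (log2 0.80 ± 0.19), Junb (log2 0.71 ± 0.22) and Atf3 (log2 0.64 ± 0.20) rose. The list score overlapped between the genotypes, at 0.18 to 0.82 in knockouts and -0.28 to 0.24 in wildtypes, and the 10 became 6 without ko_m_106, ko_m_128, ko_m_97, wt_m_112 or wt_m_113. With the filter on the mean raised to 50, which left fewer genes tested, 5 rose and the median was 0.17, against a median of 0.50 in edgeR on the recovered reads. Of 25 MAP kinase phosphatase and calcineurin genes 6 rose and none fell. Rcan1, a calcineurin regulator whose short form calcineurin itself induces, had 1342, 806, 736, 1741 and 749 in knockouts, against 418, 377, 383, 391.9 and 419 in wildtypes (log2 1.34 ± 0.20), with ko_m_130 and ko_m_106 highest. Dusp26, a phosphatase, averaged 98.6 ± 35.7 in knockouts and 26.5 ± 2.31 in wildtypes (log2 1.77 ± 0.21), and Dusp8 averaged 368 ± 32.2 in knockouts and 259 ± 5.28 in wildtypes (log2 0.50 ± 0.07). Of 18 clock genes 2 rose, Bhlhe40 (log2 0.79 ± 0.12) and Bhlhe41 (0.56 ± 0.12), and 1 fell, Usp2 (-0.47 ± 0.08), near the share of all genes.

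Some heat shock and stress response genes changed, while falls among endoplasmic reticulum genes were near the share of all genes. Of 22 small and cytosolic heat shock genes 5 rose and none fell (median log2 0.12). Hspb7, a small heat shock protein of the heart, had 43699.9, 33394, 38786, 44363 and 42695 in knockouts, against 21667, 21754, 24438, 27067 and 29672 in wildtypes (log2 0.71 ± 0.13), and Hspa1l averaged 28.5 ± 6.72 in knockouts and 9.45 ± 1.79 in wildtypes (log2 1.48 ± 0.19). In both, knockouts were above wildtypes throughout. Dnajb4, a cochaperone of muscle, rose by 0.42 ± 0.08 on the log2 scale, and Hspb3 (log2 0.70 ± 0.13) and Hsp90aa1 (log2 0.45 ± 0.11) rose. In the endoplasmic reticulum 2 of 22 fell, Hspa5 (log2 -0.34 ± 0.09) and Herpud1 (-0.41 ± 0.12), and both calls were lost without ko_m_106, wt_m_124 or wt_m_125, and the second also without ko_m_127, ko_m_97 or wt_m_139. In the integrated stress response 5 of 23 rose and 1 fell (median 0.24). Gdf15, a hormone released under cell stress, had 25.3, 31.2, 24.8, 36.6 and 13.7 in knockouts, against 9.59, 8.45, 10.3, 10.9 and 6.23 in wildtypes (log2 1.39 ± 0.24), with ko_m_97 nearest to the wildtypes. Atf4, the factor at its centre, rose slightly (log2 0.24 ± 0.07), with Cebpb (log2 0.88 ± 0.25), Slc7a5 (log2 0.70 ± 0.19) and Nupr1 (log2 0.59 ± 0.14), and Shmt2 fell (-0.33 ± 0.09). The 5 rises became 3 without wt_m_113 or wt_m_125. Hspa1l and Gdf15, with wildtype means of 9.45 and 9.09, passed the floor of 10 only through the knockouts.

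Among muscle ubiquitin ligases and atrophy genes 4 of 23 rose and 3 fell. Klhl41, which steadies sarcomere proteins, averaged 1151 ± 100.1 in knockouts and 688 ± 105 in wildtypes (log2 0.75 ± 0.10), Klhl40 averaged 295 ± 53.8 in knockouts and 162 ± 18.7 in wildtypes (log2 0.85 ± 0.12) and the ligase Fbxo40 averaged 2713 ± 307 in knockouts and 1771 ± 165 in wildtypes (log2 0.61 ± 0.09). The 3 falls, Fbxl22, Asb14 and Asb11 (log2 -0.48 ± 0.14, log2 -0.35 ± 0.09 and log2 -0.25 ± 0.08), became 1 without ko_m_106, ko_m_127, ko_m_97, wt_m_124, wt_m_125 or wt_m_139. Lists near or below the share of all genes were the proteasome, with 2 of 37 higher, Psmc6 (log2 0.26 ± 0.08) and Psmd1 (0.23 ± 0.07), and autophagy, with 2 of 32 higher, Ctsz (log2 0.34 ± 0.10) and Sqstm1 (0.31 ± 0.09), and 1 lower, the kinase Ulk1 (-0.45 ± 0.08). Antioxidant genes had 1 of 26 higher, Gsr (log2 0.28 ± 0.08), and 3 lower, Prdx3 (-0.36 ± 0.09), Sod2 (-0.33 ± 0.09) and Gsta4 (log2 -0.36 ± 0.11), and sterol synthesis 1 of 18 lower, Fdft1 (log2 -0.74 ± 0.11). Several of these calls rested on single mice. Psmc6 was lost without any mouse but ko_m_127, wt_m_125 and wt_m_139, Psmd1 without ko_m_106, ko_m_127, ko_m_97, wt_m_112, wt_m_113 or wt_m_124, and Ctsz without ko_m_127, wt_m_124 or wt_m_125. Sqstm1 was lost without ko_m_106, ko_m_130, wt_m_112, wt_m_113 or wt_m_124, Gsr without ko_m_106, ko_m_130, wt_m_112, wt_m_124 or wt_m_125, and Sod2 without ko_m_106, ko_m_127, wt_m_124, wt_m_125 or wt_m_139, with adjusted p of 0.0503 to 0.0995 over these fits. The 3 antioxidant falls became 1 without ko_m_106, ko_m_127, wt_m_125 or wt_m_139.

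Of 40 RNA-binding regulators of splicing 5 fell and 3 rose, the targeted gene among the falls. Over all genes 8.29% fell and 7.60% rose, so the list was near the share of all genes. Rbfox1 encodes a regulator of alternative exons in muscle and brain and had 118, 153.6, 176, 162 and 149 in knockouts, against 304, 323, 366, 396 and 343 in wildtypes. The highest knockout, ko_m_128, was far below the lowest wildtype, wt_m_112 (log2 -1.19 ± 0.10, adjusted p = 4.4e-06). Celf2 had 779, 646, 579, 696 and 639 in knockouts, against 448, 445, 454, 507 and 482 in wildtypes (log2 0.51 ± 0.08), with no overlap, and Nova1 (log2 1.32 ± 0.26) and Ptbp2 (log2 0.34 ± 0.09) also rose. The other falls were Srrm4 (log2 -0.48 ± 0.12), Khdrbs3 (log2 -0.33 ± 0.09) and Rbpms2 (log2 -0.32 ± 0.07). The 3 rises became 5 without wt_m_125. At the level of whole genes, 6 of 30 known RBM20 splicing targets rose and 2 fell. Enah, an actin-filament elongating protein, had 3336, 1995, 1419, 1850.0 and 1905 in knockouts, against 1087, 936, 1016, 944 and 948 in wildtypes (log2 1.03 ± 0.16), and Rtn4, a reticulon, averaged 1136 ± 251 in knockouts and 627 ± 57.3 in wildtypes (log2 0.84 ± 0.12). Ttn, titin, averaged 27918 ± 5586 in knockouts and 21423 ± 2397 in wildtypes and did not pass (log2 0.36 ± 0.15, adjusted p = 0.11). The 6 rises became 10 without ko_m_128.

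Gene-level calls were more frequent where exon usage was called too. By the authors' deposited exon table, 8.95% of the genes tested, 1119 in all, held a bin with an adjusted p under 0.05. Such a bin was found in 15.1% of the 950 rises, in 15.9% of the 1037 falls and in 7.71% of 10519 genes without a call. The median level was 182, 189 and 124.4 normalized counts in these 3 sets, and both calls come from the same mice, so the part of depth in the difference was not tested. In the authors' table Ttn held 81 such bins, Myh7 42, Camta1 14 and Slmap 10. Of these Ttn did not pass at the gene level and the others rose. Crat, Atp2a2, Ndufv3 and Rcan1, named above for their level, held 5, 5, 6 and 5.

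Cardiac transcription factors and the cell cycle gave single large changes, and calls in both lists were near the share of all genes. Of 29 developmental factors 3 rose and 2 fell. Tbx15, a T-box factor of skeletal muscle and limb, had 161, 46.7, 47.1, 146 and 80.8 in knockouts, against 14.3, 11.3, 7.46, 6.25 and 13.0 in wildtypes (log2 2.95 ± 0.33), and the knockouts fell into 3 lower and 2 higher mice. Tbx20 averaged 749.5 ± 88.2 in knockouts and 557 ± 58.7 in wildtypes (log2 0.43 ± 0.09), Heyl rose (log2 0.38 ± 0.10), and Tbx5, at 112.5 ± 7.52 in knockouts and 153.8 ± 15.4 in wildtypes (log2 -0.44 ± 0.09), and Foxp1 (log2 -0.31 ± 0.10) fell. In the 1 fit of both sexes Tbx5 did not pass (adjusted p = 0.246). Of 29 cell cycle genes 1 rose, the cyclin Ccnd2 (978 ± 189 in knockouts and 524 ± 54.4 in wildtypes; log2 0.89 ± 0.12), and 3 fell, Cenpf of the kinetochore (log2 -1.42 ± 0.25), Gadd45a (-0.73 ± 0.15) and Cdk2 (log2 -0.40 ± 0.10).

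Markers of other cells moved in part with genotype. All 24 endothelial markers were negative and 5 fell (median log2 -0.23), with Esam, of endothelial junctions, at 416, 473, 441, 419.8 and 456 in knockouts, against 578, 561, 524, 532 and 593 in wildtypes (log2 -0.34 ± 0.07). Their sum was 17783 to 21169 in knockouts and 22719 to 26080 in wildtypes, without overlap. Their score, which weighs each gene equally, did overlap, with ko_m_127 at -0.0773 and wt_m_125 at -0.0790. Fabp4 averaged 4547 ± 801 in knockouts and 6442 ± 1023 in wildtypes (log2 -0.51 ± 0.12) and Ushbp1 318 ± 38.8 in knockouts and 428 ± 64.0 in wildtypes (log2 -0.42 ± 0.10), and Pecam1 (log2 -0.23 ± 0.07) and Cldn5 (log2 -0.49 ± 0.15) fell. The 5 became 9 without ko_m_127 and 3 without ko_m_130, ko_m_97, wt_m_112, wt_m_113, wt_m_124 or wt_m_139.

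Markers of blood were lower in knockouts. Of 8 red blood cell and platelet markers 6 fell (median log2 -0.82), and the 11 in the table summed to 11539 to 22421 in knockouts and 17274 to 40707 in wildtypes, with ko_m_97 the highest knockout and wt_m_139 the highest wildtype. The platelet chemokine Ppbp had 27.5, 28.5, 15.5, 16.9 and 25.9 in knockouts, against 142.9, 96.4, 141.7, 26.4 and 385 in wildtypes (log2 -2.33 ± 0.48), and ko_m_106 and ko_m_127 overlapped wt_m_125. Pf4 averaged 79.2 ± 12.7 in knockouts and 142.99 ± 45.3 in wildtypes (log2 -0.81 ± 0.16), Gp9 averaged 2.87 ± 1.605 in knockouts and 18.2 ± 16.6 in wildtypes (log2 -2.10 ± 0.47), and the heme enzyme Alas2 fell (log2 -0.76 ± 0.20). How much blood in the tissue bears on other genes was not tested.

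Atrial markers were high in some wildtypes. Myl7, an atrial light chain, had 0.744, 0.213, 0.858, 0.444 and 1.58 in knockouts, against 692, 130.1, 42.4, 0 and 20.2 in wildtypes, and Myl4 had 15.98, 10.8, 13.8, 25.5 and 15.3 in knockouts, against 1304, 190.3, 59.3, 9.85 and 60.0 in wildtypes. Knockouts were at or near 0 for Myl7 and wt_m_112 was far above all others. One wildtype, wt_m_125, had none of Myl7, and Myl7 passed the floor of 10 only through other wildtypes. Nppa too had its highest wildtype value in wt_m_112. Of 9 atrial markers tested 3 fell, Myl7 (log2 -4.49 ± 1.18), Stard10 (log2 -0.62 ± 0.12) and Tbx5, and Nppa rose. In the 1 fit of both sexes none of the 3 passed, with an adjusted p of 0.181 for Myl7, 0.222 for Stard10 and 0.246 for Tbx5. Without wt_m_112 the log2 change was 4.82 for Nppa, -3.45 for Myl7, -0.55 for Stard10, -0.41 for Tbx5, -0.88 for Kcnj3 and -1.36 for Hcn4, and each passed.

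Immune cell markers gave few calls. Of 21 macrophage and myeloid markers 1 rose, the chemokine receptor Cx3cr1 (log2 1.06 ± 0.29), lost without ko_m_127, ko_m_128 or wt_m_139 (adjusted p = 0.051 to 0.055), and their sum was 2987 to 4271 in knockouts and 3353 to 4761 in wildtypes. None of 14 lymphocyte markers reached a mean of 10. Of 27 interferon and antigen presentation genes 1 rose, Ifit2 (log2 0.34 ± 0.08), and 2 fell, Bst2 (-0.44 ± 0.10) and Ifi44 (-0.77 ± 0.24), the last lost without any mouse but ko_m_128, wt_m_125 and wt_m_139. Of 22 cytokines and chemokines Tnfrsf12a rose, and Ccl6 (log2 -0.56 ± 0.12), Ccl11 (-0.89 ± 0.21) and Cxcl14 (log2 -0.54 ± 0.16) fell.

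Markers of the remaining cell types changed in part. Mural cell markers had Des, the muscle intermediate filament, higher (log2 0.56 ± 0.12) and Abcc9 lower (-0.42 ± 0.11) of 14. Of 6 adipocyte markers 2 fell, Aqp7 (log2 -0.70 ± 0.09) and Lipe (-0.56 ± 0.13). Of 9 neural markers Dbh, the enzyme of noradrenaline synthesis in sympathetic nerves, averaged 22.2 ± 6.02 in knockouts and 73.8 ± 15.04 in wildtypes (log2 -1.71 ± 0.19), and Pmp22, of peripheral myelin, rose (0.37 ± 0.06). Of 6 skeletal muscle genes tested Mybpc2 and Casq1 rose and Tmod4 (log2 -1.41 ± 0.24) and Ckm fell. Of the mesothelial and lung list Tg (log2 -1.15 ± 0.27) and Wt1 (-0.47 ± 0.15) were lower, the second lost without any mouse but wt_m_112.

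Calls were spread over the genome. Over the autosomes and the X, rises ran from 3.7% of genes tested on chromosome 17 to 11.2% on chromosome 16, and falls from 6.52% on the X to 10.3% on chromosome 4. Within 5 Mb of Rbm20 on chromosome 19, 5 of 29 other genes rose (17.2%) and none fell. They were Xpnpep1, Vti1a, Nrap, Atrnl1 and Hspa12a, with log2 changes of 0.28, 0.29, 1.07, 0.27 and 0.78, named after their values were seen. On the rest of the chromosome beyond 10 Mb, 22 of 347 rose (6.34%) and 31 fell (8.93%). Genes were called more often at higher levels: when genes were split by mean level into 5 equal bins, rises were 6.39% of the lowest bin and 10.7% of the highest, and falls 6.95% and 12.8%. Rises were also more frequent among genes of long span, at 5.44% in the shortest of 5 bins and 11.4% in the longest, while falls were 9.31% and 8.24%.

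The female change gave a second measurement of the same genotypes in other mice, with 1 knockout female, ko_f_154, measured by 1 library only. In females 1379 of 12781 genes tested passed, 10.8%. Of the male rises 941 were tested in females, and 881 of them (93.6%) had a change of the same sign and 418 (44.4%) were called in that direction. Of the male falls 1034 were tested, 959 (92.7%) had the same sign, 436 (42.2%) were called, and 1 was called the other way, Trim7, at -0.35 ± 0.09 in males and 0.42 ± 0.11 in females. The 854 genes called alike in both sexes were 43.2% of the male calls and 63.2% of the female calls. Male calls were chosen on the male change, so their median of 0.51 for rises and -0.48 for falls in males, against 0.33 and -0.30 in females, is not a test of a difference. The difference itself, male change minus female change in 1 limma fit, passed in 0 of 12462 genes (0%), with 1003 at an unadjusted p under 0.05.

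The lists that led in males had a median of the same sign in females. Fatty acid genes had 14 lower and none higher (median log2 -0.27), the citric acid cycle 10 lower (-0.24), fetal and stress genes 14 higher (0.70), collagens 11 higher (0.48), other matrix genes 19 higher (0.43) and channels 12 lower and 1 higher (-0.21). Z-disc genes had 12 higher (0.26). Rbm20 changed by -1.52 ± 0.14 in females, Vgll2 by 3.07 ± 0.73, Mybpc2 by 2.31 ± 0.20 and Rbfox1 by -1.18 ± 0.14.

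Some genes with a clear male change had a smaller, near 0 or opposite value in females, although no single difference passed over all genes. Fbp2 changed by -3.19 ± 0.29 in males and -0.99 ± 0.26 in females, a difference of -2.20 ± 0.44 (adjusted p = 0.084). Ucp3 changed by -1.89 ± 0.31 in males and 0.37 ± 0.32 in females, Pdk4 by -1.61 ± 0.36 and 0.04 ± 0.28, and Hcn4 by -1.40 ± 0.18 and 0.26 ± 0.23, males before females. The atrial markers had a median log2 change of -0.44 in males and 1.47 in females. The part of atrial tissue in the difference of Hcn4 was not tested. Aldh9a1, an aldehyde dehydrogenase of carnitine synthesis, had 135, 109.8, 142.2, 132 and 152 in knockout males, against 235, 246, 277, 240.5 and 239.8 in wildtype males (log2 -0.89 ± 0.09), with no overlap, and changed by 0.00 ± 0.12 in females (adjusted p of the difference = 0.078). Among rises, Irf8, a factor of myeloid cells, changed by 0.79 ± 0.11 in males and -0.14 ± 0.15 in females, Rem1, a small GTPase acting on calcium channels, by 0.49 ± 0.10 and -0.29 ± 0.11, and 1700025G04Rik, of no stated role, by 0.55 ± 0.07 and -0.08 ± 0.10.

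**Figure D5:**
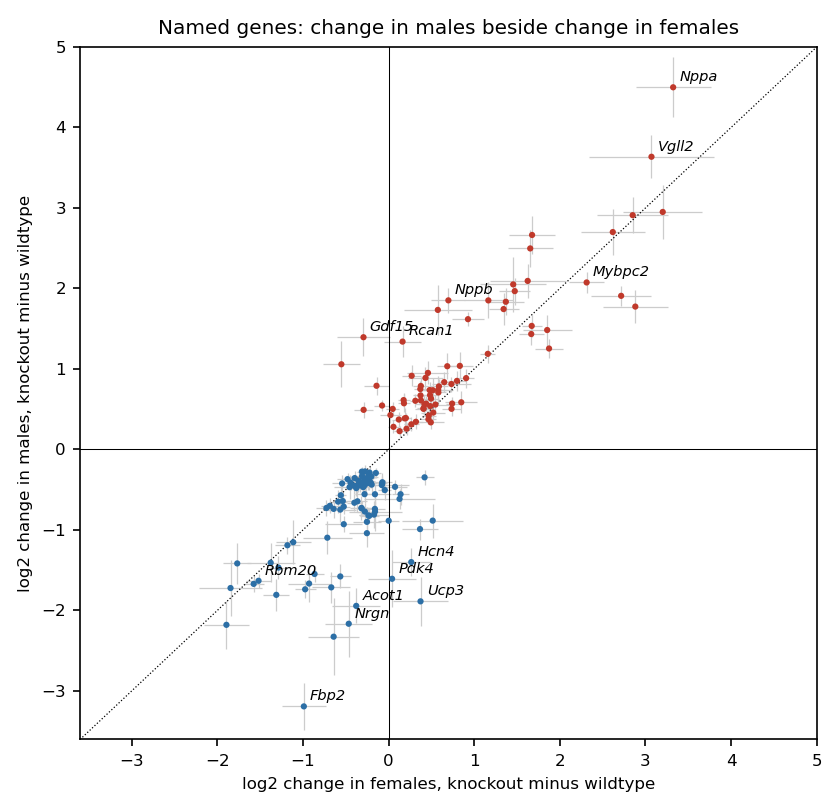
Log2 change, knockout minus wildtype, of the named genes in males (vertical axis) against females (horizontal axis), with SE bars. Red dots rose and blue dots fell in males, the dotted line marks equal change, and Fbp2, Ucp3, Pdk4 and Hcn4 lie below it.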

How the data were processed

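Left ventricle RNA of 5 knockout and 5 wildtype males, 2 libraries a mouse, was sequenced; per the submitters' processing notes reads were aligned with STAR 2.7.10a to GRCm39 (mm39) and DESeq2 was used, while the counter and the annotation are not given in the sources used here. The authors' deposited tables hold signal values that are counts divided by a size factor per library, females and males in separate tables, beside the authors' log2 fold changes and p-values; their exon table gives an adjusted p-value per exon bin, per the file headers. Of the females' values 1 column fits no label and was not used. The knockout female ko_f_154 entered with 1 library, of 6166106 reads in genes, and every other mouse with 2.

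The 2 libraries of a mouse were averaged, because they differed by little more than counting, and limma 3.58.1 (R 4.3.3) was fitted to log2(value + 1) of every gene with a mean of at least 10 (trend, two-sided, Benjamini-Hochberg adjustment, threshold 0.05). The +1 makes the fold of low genes smaller than that of the values. The plan named a count test should the values be raw reads; as they are normalized, limma is the test, and edgeR 4.0.16 and DESeq2 1.42.0 were run as alternatives on whole reads recovered from the values (tolerance 1e-06). limma's fit was first tested on simulated data with 200 changed genes. pandas 2.3.3, numpy 2.4.6 and matplotlib 3.10.9 in Python 3.11.15 made the tables and figures.

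The members and the 60 gene lists were chosen with earlier results of these data known, so lists get counts and medians and no test. Genes named by rule were Rbm20, the 12 largest rises and 12 largest falls with a mean of at least 50, no overlap between genotypes and an ordinary symbol, up to 3 called members of each list, taken by p, and the 8 called genes whose male and female changes differed at the lowest p. Promoters are RefSeq's on GRCm38.p6. The labels name mice but no cultures, cages or dates, so p-values measure the spread between these mice, and no batch could be looked for in them.
Results on some genes are not reported here.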

Additional observations from a re-analysis of the deposited data

Results flagged for a closer look

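In 20 cases 1 mouse lay far from the other 4 of its genotype in a named gene, its gap to the nearest being over 0.71 of the group's range. Chance alone flags about 1 in 20 groups, and 170 genes in 2 groups each were looked at. Values are normalized counts, given for the mouse and then for the range of the other 4.

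In knockouts, ko_m_106 was low in Fah (73.7, others 95.6 to 105.0), Mfn1 (1287, others 1348 to 1362), Lamb3 (64.1, others 95.6 to 112.4), Aqp7 (60.1, others 75.6 to 79.8) and Tg (3.41, others 8.40 to 11.3). The mouse ko_m_97 was low in Krt18 (5.81, others 18.99 to 22.1) and Igfbp7 (1763, others 2056 to 2179) and high in Dsg2 (266, others 184 to 194). Casq1 was high in ko_m_130 (3869, others 2788 to 3055) and Pdgfra in ko_m_127 (514, others 401 to 431).

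In wildtypes, wt_m_139 was high in 3 genes of the respiratory chain, Ndufs8 (3007, others 2242 to 2406), Cox7a1 (8504, others 6485 to 7012) and Atp5d (6348, others 5159.8 to 5369), and in Rgs2 (535, others 312 to 363), Grb14 (1681, others 1431 to 1491) and Pf4 (222, others 107 to 131). Kcnj3 was high in wt_m_112 (424, others 350.4 to 367), Dbh in wt_m_113 (100.4, others 64.5 to 70.7), and Aldh9a1 (277, others 235 to 246) and Rem1 (99.1, others 75.4 to 77.6) in wt_m_124.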

How the results depend on the processing

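The counts of 950 rises and 1037 falls stayed within 1.5-fold under every alternative but 1. The authors' DESeq2 table gives 1722 rises and 1866 falls among the same genes and moves 62 of 120 list counts. It holds the 2 libraries of a mouse in separate columns, and whether its fit took them as separate replicates was not checked. Leaving out 1 mouse gave 729 to 904 rises and 807 to 984 falls. Recovered reads gave 1022 and 1041 in edgeR, 1080 and 1200 in DESeq2, and 1043 and 988 with TMM scaling, which shifts the median log2 change by 0.013; 1 library a mouse gave 795 and 859, or 740 and 827; 1 fit of both sexes gave 1090 and 1163. Without a filter 939 rose and 1045 fell, at a mean of at least 50 it was 772 and 842, and pseudocounts of 0.5 and 5 moved neither count by more than 3. Of 170 named genes 157 passed in every fit without 1 mouse that tested them and 156 under every other alternative that tested them, and none reversed (at a mean of at least 50, 153 were tested). Ifi44 and Wt1 were lost most often. Fatty acid genes had 31 falls in edgeR, in DESeq2 and with TMM scaling, and 35 in the authors' deposited table. No paired analysis was possible because mouse numbers differ between genotypes. With 5 mice a genotype the median SE over all genes tested was 0.105 on the log2 scale.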
